A study of Macaca mulatta with 9 samples.

Results

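The cytotoxic granule and killing genes measured here were GZMA, GZMB, GZMH and GZMK, the granzymes; PRF1, GNLY, NKG7 and CTSW, which encode other proteins of killer cell granules; FASLG, a death ligand; and FGFBP2, a gene used as a marker of cytotoxic lymphocytes. They were chosen by name, and these 10 genes were read by 10 of the 767 probes. The study counted transcripts in formalin-fixed, paraffin-embedded biopsies of pig kidneys carried by rhesus macaques, using the nCounter Human Organ Transplant Panel, in which barcoded probes count RNA molecules by hybridisation without amplification. The 9 libraries formed 3 groups of 3. In 1KO.1TG early R the graft came from a 1KO.1TG donor pig and the sample was labelled early and R. In 3KO.7TG early bx the graft came from a 3KO.7TG donor pig and the sample was labelled early and bx. In 3KO.7TG late R the donor line was again 3KO.7TG and the sample was labelled late and R. They are called below the 1KO.1TG group, the early 3KO.7TG group and the late 3KO.7TG group. The labels name none of the altered genes, spell out neither R nor bx, and give no day after transplantation, host age or drug treatment. They list the organism as Macaca mulatta and every sample as male. Nothing in them ties samples to animals, and replicates may not be separate animals, so the p-values measure the spread between samples alone, and some of that spread may be technical.

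Cytotoxic T cells and natural killer (NK) cells destroy target cells by releasing granules onto them. Perforin opens the target membrane, granzymes enter through it and cleave proteins that start cell death, and granulysin also damages membranes. A separate route uses Fas ligand on the killer cell, which engages Fas on the target and sets off caspases. Transcripts of these granule genes in kidney transplant biopsies are known as markers of infiltrating killer lymphocytes during rejection. All 10 symbols are annotated as protein-coding genes in the rhesus macaque RefSeq annotation. In it GZMB and GZMH are direct neighbours, and GZMA and GZMK lie on 1 chromosome with 1 annotated gene, not protein-coding, between them. The probes of these genes were designed on human transcripts, and the labels do not say how each binds macaque or pig RNA. Closely related granzymes may share signal, so a value below is the signal of a probe.

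Depth differed widely between libraries. Total counts lay between 657340 and 1620151 in 8 libraries and were 21725 in replicate 3 of the 1KO.1TG group, the low-yield library below. The 4 probes for viral genes served as a measure of background, and the highest of them gave 7 to 17 counts in a library. In the low-yield library 69.8% of all probes lay at or below that library's highest viral probe, against 8.60% to 19.4% in the other 8. There 5 of the 10 members (GZMB, GZMH, PRF1, FASLG and FGFBP2) were at or below it, and in each other library only FGFBP2 was. The members' fitted differences and the medians of gene lists are therefore given with all 9 libraries and with the 8 that remain without the low-yield one, which leaves 2 samples in the 1KO.1TG group. Group means of the members are given without it, beside its own counts. Uromodulin (UMOD), a defining kidney transcript, was counted in every library, at 452 to 31665. For 4 reference genes the panel held a macaque and a pig probe, which gave a log2 ratio, averaged over the genes, of macaque over pig signal between −3.62 and −0.56, and this balance varied within every group. Because a biopsy mixes many cells, a lower value can come from fewer killer cells or from less RNA in each, and these cannot be told apart here.

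The granzymes are serine proteases of the granule, and of the members above background GZMA had the widest range of levels, over 9 libraries as over 8. Values are given as whole counts and as a scaled level in log2 CPM, where CPM is the count after division by the trimmed-mean scaled size of its library, set to a common size. GZMA, granzyme A, gave 6638, 5883 and 18 counts in replicates 1 to 3 of the 1KO.1TG group, 655, 932 and 4129 in the early 3KO.7TG group, and 857, 2165 and 2690 in the late 3KO.7TG group. Its scaled level averaged 12.50 ± 0.20 (SD, n = 2) in the 1KO.1TG group without the low-yield library, 10.78 ± 0.98 (n = 3) in the early 3KO.7TG group and 10.57 ± 0.39 (n = 3) in the late 3KO.7TG group. Replicates 1 and 2 of the 1KO.1TG group stood above all 6 of the 3KO.7TG libraries, among which replicate 3 of the early 3KO.7TG group came nearest, at 11.84. The low-yield library had the lowest level, 8.30, which rests on 18 counts. Its trimmed-mean factor was 2.71, against 0.76 to 1.00 in the other libraries. That factor lowers all its scaled levels, so its rank depends on the scaling.

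GZMB, granzyme B, which cleaves caspases and BID in the target cell, gave 1538, 1729 and 6 counts in the 1KO.1TG group, 732, 883 and 1626 in the early 3KO.7TG group, and 625, 1295 and 1065 in the late 3KO.7TG group. Its scaled level averaged 10.56 ± 0.04 (SD, n = 2) in the 1KO.1TG group without the low-yield library, 10.36 ± 0.25 (n = 3) in the early 3KO.7TG group and 9.73 ± 0.06 (n = 3) in the late 3KO.7TG group. The 3 late libraries lay below every other library but the low-yield one, which stood at 6.79 on 6 counts. GZMH, granzyme H, a related protease abundant in NK cells, gave 98, 138 and 5 counts in the 1KO.1TG group, 55, 46 and 53 in the early 3KO.7TG group, and 26, 94 and 70 in the late 3KO.7TG group. On the log2 CPM scale it averaged 6.75 ± 0.27 (n = 2) in the 1KO.1TG group without the low-yield library, 6.06 ± 0.43 in the early 3KO.7TG group and 5.64 ± 0.38 in the late 3KO.7TG group (n = 3 each). The low-yield library's level of 6.55 stood above every 3KO.7TG library, but it came from 5 counts, which is under that library's highest viral probe of 13.

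GZMK, granzyme K, marks a type of memory T cell with less perforin, and without the low-yield library its group means lay closest together among the granzymes. With it those of GZMA did, at 11.10, 10.78 and 10.57, against 7.88, 7.12 and 7.49 for GZMK. It gave 183, 239 and 20 counts in the 1KO.1TG group, 109, 97 and 115 in the early 3KO.7TG group, and 131, 276 and 227 in the late 3KO.7TG group. Its scaled level averaged 7.60 ± 0.20 (SD, n = 2) in the 1KO.1TG group without the low-yield library, 7.12 ± 0.37 (n = 3) in the early 3KO.7TG group and 7.49 ± 0.05 (n = 3) in the late 3KO.7TG group. Among the granzymes it was the one whose highest level, 8.44, was in the low-yield library.

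PRF1 encodes perforin, the pore-forming protein. It gave 273, 282 and 7 counts in the 1KO.1TG group, 80, 76 and 182 in the early 3KO.7TG group, and 75, 136 and 132 in the late 3KO.7TG group. The scaled level averaged 8.01 ± 0.04 (SD, n = 2) in the 1KO.1TG group without the low-yield library, 7.07 ± 0.24 (n = 3) in the early 3KO.7TG group and 6.63 ± 0.12 (n = 3) in the late 3KO.7TG group. In the 8 libraries the 3 groups were separate and in that order, with no overlap. GNLY, granulysin, gave 5126, 3324 and 28 counts in the 1KO.1TG group, 1090, 966 and 1718 in the early 3KO.7TG group, and 1100, 2152 and 1374 in the late 3KO.7TG group. On the log2 CPM scale it averaged 11.90 ± 0.52 (n = 2) in the 1KO.1TG group without the low-yield library, 10.62 ± 0.04 in the early 3KO.7TG group and 10.37 ± 0.30 in the late 3KO.7TG group (n = 3 each). Both deep 1KO.1TG libraries stood above the 6 libraries of 3KO.7TG. The low-yield library, at 8.92 on 28 counts, stood below them under this scaling.

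NKG7, a membrane protein of the granule that helps it to be released, gave 2448, 1382 and 14 counts in the 1KO.1TG group, 701, 747 and 1092 in the early 3KO.7TG group, and 741, 1215 and 1350 in the late 3KO.7TG group. Its scaled level averaged 10.73 ± 0.66 (SD, n = 2), 10.07 ± 0.18 (n = 3) and 9.89 ± 0.21 (n = 3) in the same order, the first without the low-yield library. Replicate 1 of the 1KO.1TG group, at 11.20, was the high library, and replicate 2, at 10.27, lay level with the highest library of the early 3KO.7TG group at 10.28. CTSW, cathepsin W, a cysteine protease made by NK cells and cytotoxic T cells, gave 487, 156 and 14 counts in the 1KO.1TG group, 238, 273 and 251 in the early 3KO.7TG group, and 215, 148 and 242 in the late 3KO.7TG group. Its scaled level was 8.87 in replicate 1 and 7.12 in replicate 2 of the 1KO.1TG group, so the group spanned almost the whole range of the other 6 libraries, 6.61 to 8.83.

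FASLG, the ligand of the death receptor Fas, did not separate the groups. It gave 85, 68 and 3 counts in the 1KO.1TG group, 29, 41 and 101 in the early 3KO.7TG group, and 44, 81 and 147 in the late 3KO.7TG group. The scaled level averaged 6.14 ± 0.30 (SD, n = 2) in the 1KO.1TG group without the low-yield library, 6.01 ± 0.54 (n = 3) in the early 3KO.7TG group and 6.18 ± 0.56 (n = 3) in the late 3KO.7TG group, where replicate 3 was the highest of the 8 libraries at 6.81. FGFBP2, which marks cytotoxic lymphocytes in human blood, gave 4 to 13 counts and was at or below the highest viral probe in all 9 libraries, so it is given no fold change.

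**Figure D1:**
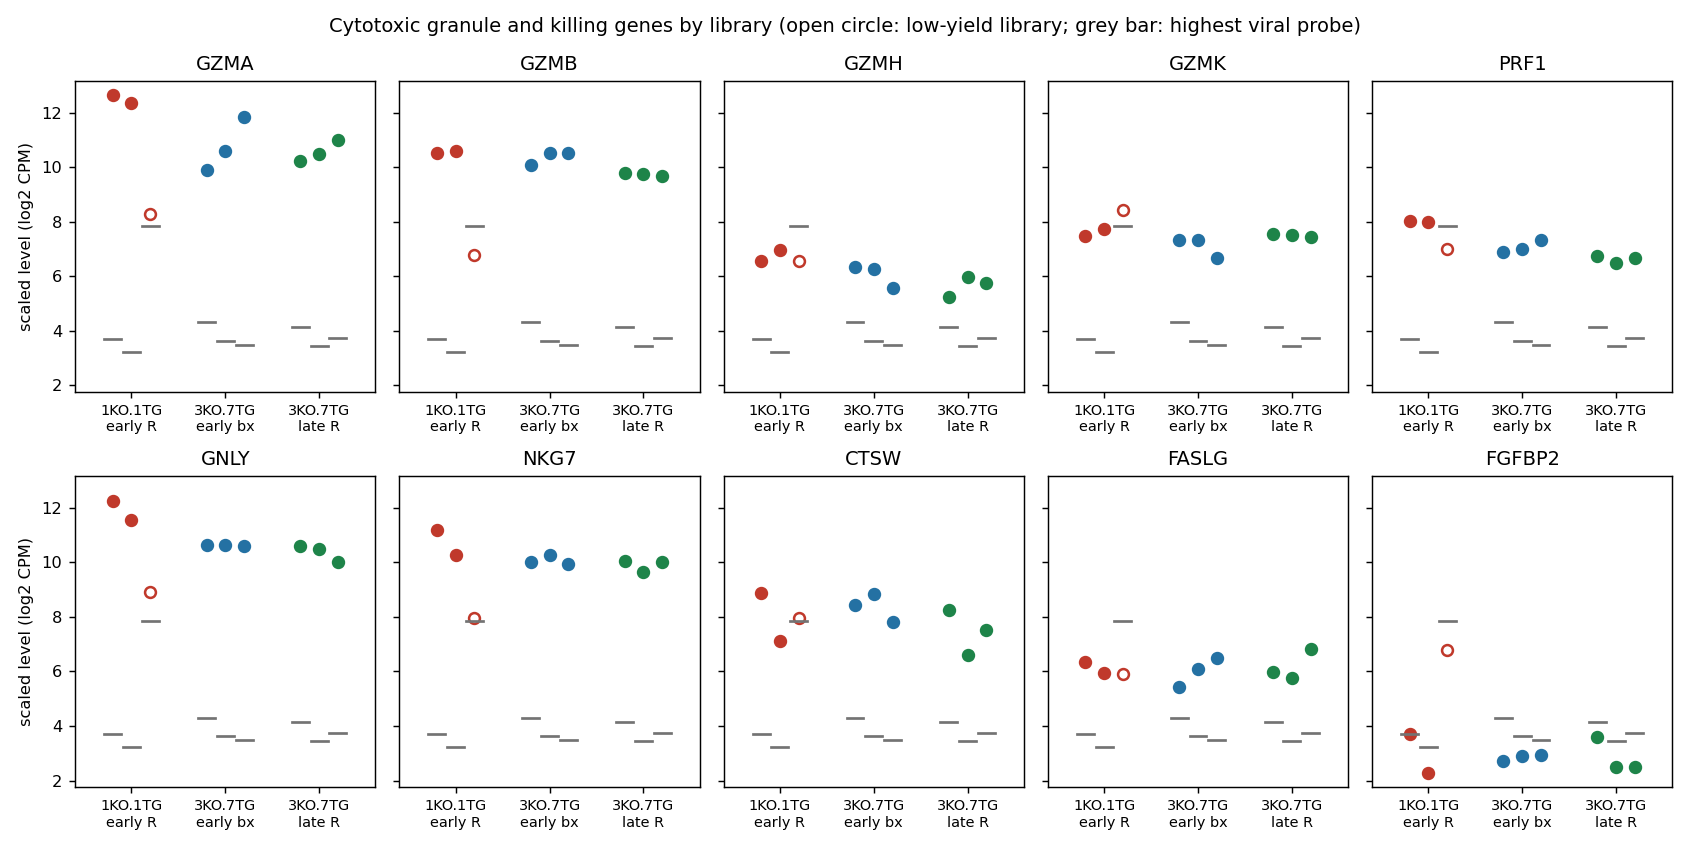
Scaled level (log2 CPM, vertical axis) of the 10 genes in each of the 9 libraries, grouped along the horizontal axis by donor line and label; each point is a library, the open circle is the low-yield library, and each grey bar is the highest viral probe of that library. For GZMA, PRF1 and GNLY the 2 filled 1KO.1TG early R points lie above every 3KO.7TG point, and FGFBP2 lies at or under the grey bars.

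Under trimmed-mean scaling 6 of 10 members ran highest in the 2 deep 1KO.1TG libraries. Replicates 1 and 2 of that group held the 2 highest levels among the 8 libraries for GZMA, GZMB, GZMH, PRF1, GNLY and, under the scaling of the 8 libraries alone, NKG7. At most 12.8% of all probes can have done so, the share in which both stood above every late library. Set against the macaque reference probes, GZMA and PRF1 kept this pattern. GZMB, GZMH, GNLY and NKG7 did not, the lower deep library giving 0.40, −3.30, 1.35 and 0.08 on the log2 scale. The highest early 3KO.7TG library gave 1.23, −3.03, 1.36 and 0.99. Without the low-yield library the mean scaled order of these 6 members was the 1KO.1TG group, the early 3KO.7TG group, the late 3KO.7TG group. The share of all probes in this order was not counted. GZMK had its lowest mean in the early 3KO.7TG group, CTSW its highest there, and FASLG its highest in the late 3KO.7TG group, by less than the spread between replicates. The 10 probes together took 1.62% and 0.895% of all counts in replicates 1 and 2 of the 1KO.1TG group, 0.448% to 0.778% in the early 3KO.7TG group and 0.457% to 0.476% in the late 3KO.7TG group. This sum is carried mostly by the probes with the most counts, and shares of all counts also move with every other probe. The low-yield library had 0.557%.

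The members differed in how tightly replicates lay together. Over the 8 libraries the pooled SD within groups of the scaled level was 0.19 for GZMB and PRF1, 0.25 for GZMK, 0.30 for GNLY, 0.35 for NKG7 and 0.37 for GZMH. It was 0.52 for FASLG, 0.69 for GZMA and 0.83 for CTSW. The median over the 554 probes above the highest viral probe in all 8 libraries was 0.52, so GZMA and CTSW lay above that median and FASLG close to it.

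The level of each member was also set against the mean level of the 9 members above background, over 8 libraries, as a description. PRF1 followed that mean most closely (Pearson r = 0.95), then NKG7 (0.92), GNLY (0.91), GZMA (0.84), GZMB (0.79) and GZMH (0.66). CTSW (0.43), FASLG (0.24) and GZMK (0.12) followed it least, and each r counts the gene itself in the mean. Among 609 other probes with a mean of at least 20 counts, the 5 most like the mean over 8 libraries were BIRC3, an inhibitor of apoptosis (r = 0.91), NOTCH1, a cell surface receptor (0.81), TBX21, the transcription factor T-bet that drives cytotoxic and type 1 helper programmes (0.79), IMPDH1, an enzyme of guanine nucleotide synthesis (0.72), and FOSL1, an AP-1 transcription factor (0.71). With the low-yield library added, r was −0.12 for BIRC3, −0.13 for NOTCH1, 0.12 for TBX21, 0.81 for IMPDH1 and −0.11 for FOSL1. All these values share the same libraries, their depth and their scaling.

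The first comparison addressed the donor line in samples labelled early, the 1KO.1TG group against the early 3KO.7TG group. The labels R and bx differ in the same way as the donor line, and the effects of these cannot be told apart. No member passed the test with all 9 libraries (limma, adjusted over all 767 probes, called under 0.05), a threshold that 0.391% of all probes passed. Without the low-yield library no member passed either, and 1.83% of probes did. In this fit, which weights each observation, the signs of GZMA and GNLY turned on whether that library was included. PRF1 kept its sign.

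Without the low-yield library the fitted level of GNLY was 2.53 times as high in the 1KO.1TG group, short of the threshold (log2 fold change 1.34 ± 0.38 SE, 95% interval 0.49 to 2.19, limma adjusted p = 0.107). With all 9 libraries the fitted difference was −0.19 ± 0.77 (limma adjusted p = 0.990). The fitted level of GZMA was 3.46 times as high without the low-yield library (log2 fold change 1.79 ± 0.55 SE, 95% interval 0.56 to 3.02, limma adjusted p = 0.136), and its log2 fold change was −0.36 ± 1.04 with it (limma adjusted p = 0.974). These negative values for GZMA and GNLY come from a fit that weights each observation. With equal weights and all 9 libraries the differences were 0.31 and 0.28. For PRF1 it was 1.99 times as high without the low-yield library (log2 fold change 0.99 ± 0.36 SE, 95% interval 0.18 to 1.80, limma adjusted p = 0.177), and the log2 fold change was 0.81 ± 0.40 with it (limma adjusted p = 0.427), although perforin there rests on 7 counts in the low-yield library. So 3 of 10 members were higher at an unadjusted p under 0.05 in the 8 libraries, beside 13% of all probes, and 0 of 10 in the 9 libraries, beside 6.39% of all probes.

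NKG7 (0.73 ± 0.40 SE), GZMH (0.78 ± 0.44) and GZMK (0.57 ± 0.38) had positive fitted log2 differences in the 8 libraries, with limma adjusted p from 0.361 to 0.463. GZMB, at 0.26 ± 0.35 (95% interval −0.52 to 1.05), FASLG, at 0.18 ± 0.52 (−0.98 to 1.34), and CTSW, at −0.29 ± 0.63 (−1.69 to 1.12), had intervals that reach well to both sides of 0. With all 9 libraries the signs of NKG7 and GZMB turned, to −0.34 ± 0.71 and −0.86 ± 0.82. The other values were 0.74 ± 0.46 for GZMH, 0.60 ± 0.42 for GZMK, 0.05 ± 0.53 for FASLG and −0.40 ± 0.60 for CTSW, and limma adjusted p ran from 0.538 to 0.990 for these 6. In the 8 libraries 7 members had both 1KO.1TG scaled levels above all 3 of the early 3KO.7TG group, beside 18.9% of all probes. For GZMB and NKG7 the gap between the groups was only 0.05 and 0.04 on the log2 scale. With all 9 libraries 2 members, GZMH and GZMK, did not overlap, beside 6.39% of all probes, and for GZMH this rests on 5 counts in the low-yield library. The members' median log2 fold change was 0.65 in the 8 libraries, beside −0.00 over all probes, with 9 of 10 above 0, beside 49.9% of all probes. These medians and counts include FGFBP2, which is at background. With 9 libraries the members' median was −0.07, beside −0.07 over all probes.

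The second comparison set the same 1KO.1TG samples against the late 3KO.7TG group. Both carry the label R, and they differ in donor line and in early against late, whose effects cannot be told apart. It shares the 1KO.1TG libraries with the first comparison, so the low-yield library weighs on both. No member passed the adjusted threshold, with 9 libraries, where 0.391% of probes did, or with 8, where 0.522% did.

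The fitted level of GNLY was 2.97 times as high in the 1KO.1TG group without the low-yield library (log2 fold change 1.57 ± 0.38 SE, 95% interval 0.71 to 2.42, limma adjusted p = 0.273), the fifth smallest p of 767 probes. With all 9 libraries it was 0.06 ± 0.78 (limma adjusted p = 0.978). The level of PRF1 was 2.69 times as high without the low-yield library (1.43 ± 0.36 SE, 95% interval 0.62 to 2.24, limma adjusted p = 0.273) and 2.43 times as high with it (1.28 ± 0.40, limma adjusted p = 0.645), again with 7 counts in that library. The level of GZMA was 3.91 times as high without it (1.97 ± 0.55 SE, 95% interval 0.74 to 3.20, limma adjusted p = 0.273), and its log2 fold change was −0.17 ± 1.05 with it (limma adjusted p = 0.971). For perforin, granulysin and granzyme A both deep 1KO.1TG libraries stood above every late library, by 1.27, 0.96 and 1.41 on the log2 scale.

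GZMH had a fitted log2 fold change of 1.13 ± 0.44 SE and GZMB of 0.87 ± 0.35 without the low-yield library (limma adjusted p = 0.527 for both). With it GZMH was 1.03 ± 0.45 (limma adjusted p = 0.727) and GZMB −0.24 ± 0.81 (limma adjusted p = 0.956). NKG7 was 0.88 ± 0.40 without it (limma adjusted p = 0.530) and −0.16 ± 0.72 with it (limma adjusted p = 0.962). CTSW (0.61 ± 0.63), GZMK (0.15 ± 0.37) and FASLG (0.00 ± 0.51, 95% interval −1.13 to 1.13) overlapped between the groups. With the low-yield library these 3 were 0.51 ± 0.59, 0.20 ± 0.41 and −0.07 ± 0.50. Thus 5 of 10 members were higher at an unadjusted p under 0.05 in the 8 libraries, beside 5.48% of all probes, and 2 of 10 (GZMH and PRF1) in the 9 libraries, beside 2.87%. Levels did not overlap, the 1KO.1TG group being higher, for 6 members in the 8 libraries, beside 12.8% of all probes, and for the same 2 in the 9 libraries, beside 4.43%. In the low-yield library GZMH and PRF1 gave 5 and 7 counts, under its highest viral probe of 13. The level of that probe, 7.84, lay above every late level of both, so their place there rests on background. The median over the members was 0.87 in the 8 libraries, beside 0.05 over all probes, and 0.13 in the 9 libraries, beside −0.06. All 10 were above 0 in the 8 libraries, beside 53.3% of all probes. They include FASLG, barely above 0, and FGFBP2, which is at background.

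The third comparison asked how late and early samples of the 3KO.7TG line differed, the late against the early 3KO.7TG group. Here the labels late and R change together. The low-yield library is in neither group and enters only through the shared spread and the scaling. No member passed at an adjusted p under 0.05, and of all probes 0% did with 9 and with 8 libraries. At an unadjusted p under 0.05 there was also no member, beside 1.69% of probes with 9 libraries and 3.52% with 8.

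GZMB was lower in every late library than in any early one, the fitted log2 difference being −0.63 ± 0.82 SE with 9 libraries (limma adjusted p = 0.990) and −0.61 ± 0.31 (95% interval −1.30 to 0.09, limma adjusted p = 0.911) with 8. PRF1 was also lower without overlap (−0.44 ± 0.34 SE with 8 libraries, limma adjusted p = 0.927). Together these are 2 of 10 members, beside 3.78% of all probes that were lower without overlap. GZMK, which is 1 of 10 members, was higher without overlap (0.42 ± 0.35 with 8 libraries, limma adjusted p = 0.927), beside 6.39% of all probes. GZMA differed by −0.18 ± 0.50 SE (95% interval −1.29 to 0.93) and GNLY by −0.23 ± 0.34 (−0.99 to 0.54) in the 8 libraries, with overlapping groups. The widest difference, that of CTSW at −0.89 ± 0.57 (−2.17 to 0.38), came with overlapping groups as well. GZMH (−0.35 ± 0.41), NKG7 (−0.15 ± 0.35) and FASLG (0.18 ± 0.46) also overlapped. With 9 libraries the values were −0.47 for PRF1, 0.40 for GZMK, −0.19 for GZMA, −0.25 for GNLY, −0.91 for CTSW, −0.29 for GZMH, −0.17 for NKG7 and 0.12 for FASLG. The members' median was −0.20 in the 8 libraries, beside 0.02 over all probes, and −0.22 in the 9, beside −0.02. In both 2 of 10 were above 0, beside 51.0% of all probes in the 8 and 49.2% in the 9.

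**Figure D2:**
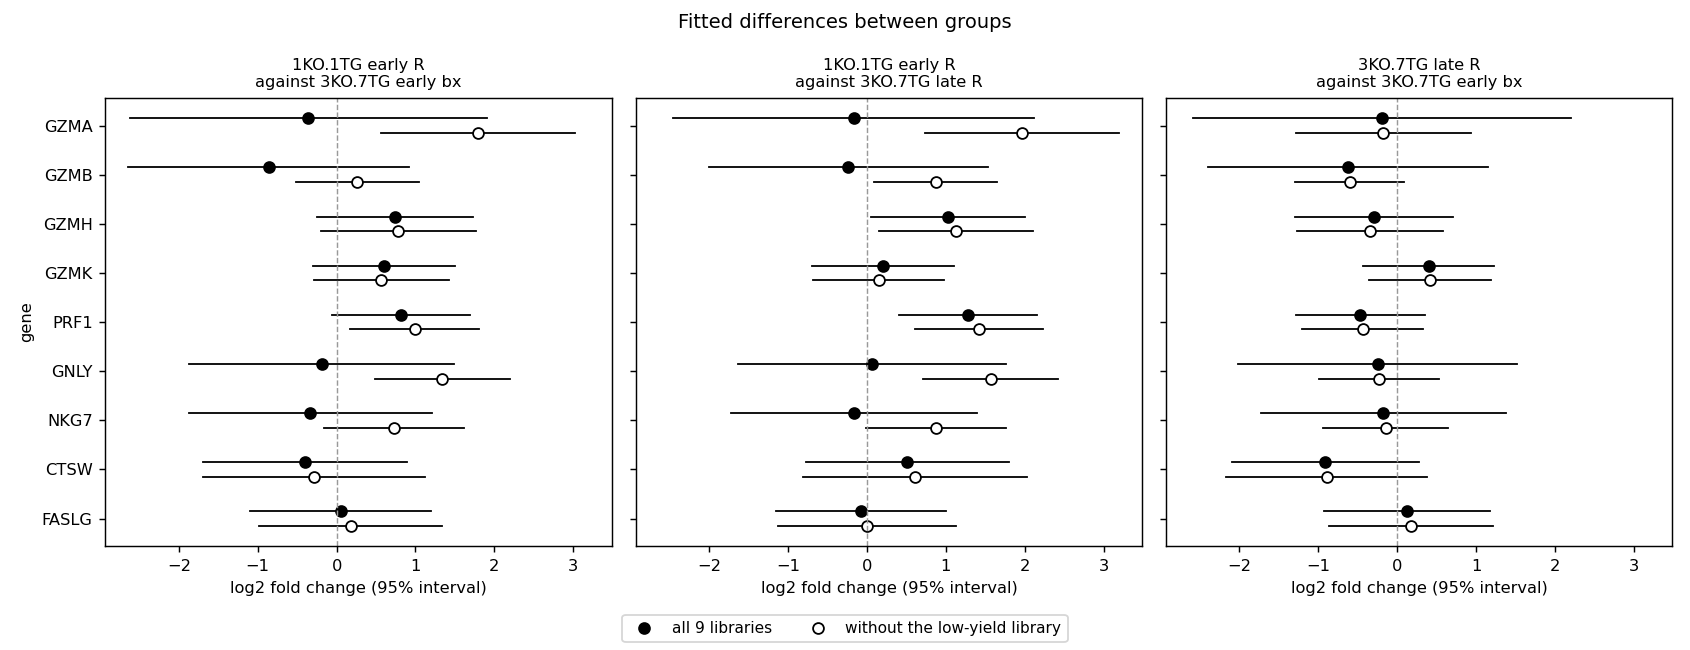
Fitted log2 fold change (horizontal axis) of the 9 members above background in the 3 comparisons, with 95% intervals as lines; filled points use all 9 libraries and open points leave out the low-yield one. In the 2 comparisons with 1KO.1TG early R the points of GZMA move from −0.36 to 1.79 and from −0.17 to 1.97, while in 3KO.7TG late R against 3KO.7TG early bx the points hardly move and every interval spans 0.

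Ratios of counts within a library do not depend on how libraries are scaled, so they show how the members changed relative to each other. The pairs were chosen after their values had been seen, and no test was made. The log2 ratio of GZMA to GZMB was 2.11, 1.77 and 1.58 in replicates 1 to 3 of the 1KO.1TG group, −0.16, 0.08 and 1.34 in the early 3KO.7TG group, and 0.46, 0.74 and 1.34 in the late 3KO.7TG group. The deep libraries of the 1KO.1TG group lay above the 6 libraries of 3KO.7TG. The low-yield one did too, but its granzyme B gave 6 counts, under its highest viral probe of 13. Its ratio is therefore set against background. The ratio of GNLY to NKG7 was 1.07, 1.27 and 1.00 in the 1KO.1TG group, 0.64, 0.37 and 0.65 in the early 3KO.7TG group, and 0.57, 0.82 and 0.03 in the late 3KO.7TG group. Here too the deep 1KO.1TG libraries were the highest. The low-yield one came next with 28 and 14 counts, the latter barely above its highest viral probe. The ratio of PRF1 to GZMB was −2.49 and −2.62 in replicates 1 and 2 of the 1KO.1TG group and −3.54 to −3.01 in the 6 libraries of 3KO.7TG. In the low-yield library both of these genes were under background.

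The balance between GZMA and GNLY did not separate the groups. Its log2 ratio was 0.37 and 0.82 in the deep libraries of the 1KO.1TG group, −0.73, −0.05 and 1.27 in the early 3KO.7TG group, and −0.36, 0.01 and 0.97 in the late 3KO.7TG group. Replicate 3 of the early 3KO.7TG group was the highest. Relative to CD8A, the alpha chain of the co-receptor of cytotoxic T cells, GNLY had a log2 ratio of 5.47 and 5.31 in the deep 1KO.1TG libraries, 4.18, 4.75 and 4.15 in the early 3KO.7TG group, and 4.32, 4.60 and 3.48 in the late 3KO.7TG group. The 2 deep libraries were again the highest, while the low-yield one, with 6 counts of CD8A, was the lowest at 2.22. CD8A itself had scaled levels of 6.80 and 6.23 there and 5.88 to 6.55 in the other 6, so it did not separate the groups. Relative to CD3E, a chain of the T cell receptor complex, the groups overlapped for GNLY, with log2 ratios of 4.75 and 2.88 in the deep 1KO.1TG libraries, 3.66, 3.42 and 1.37 in the early 3KO.7TG group, and 2.83, 1.99 and 0.93 in the late 3KO.7TG group. PRF1 over CD3E overlapped too, at 0.52 and −0.68, then −0.10, −0.24 and −1.87, then −1.05, −1.99 and −2.45 in the same order. GZMA over CD3E was 5.12 and 3.70 in the deep libraries, above the 1.90 to 3.37 of the other 6. In the low-yield library these 3 ratios were 0.72, −1.28 and 0.08.

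**Figure D3:**
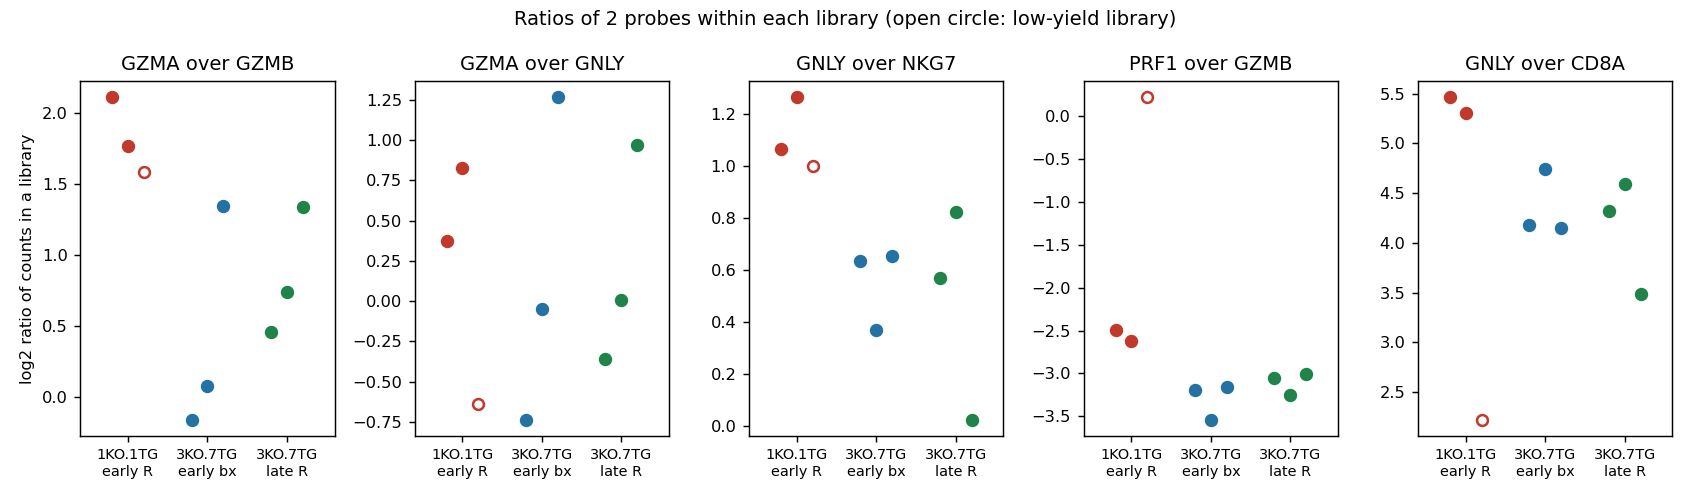
Log2 ratio of the counts of a pair of probes within each library (vertical axis, each panel on its own scale) by group; the open circle is the low-yield library. GZMA over GZMB and GNLY over NKG7 are highest in the deep libraries of 1KO.1TG early R, whereas GZMA over GNLY overlaps between groups. The low-yield points rest on 6 to 28 counts a probe for the 4 pairs of members, with GZMB and PRF1 under background.

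Genes that act on either side of the killing step were read from lists. Of the death receptor and apoptosis list 13 of 27 genes were measured, and none passed the adjusted threshold in any comparison with 9 or 8 libraries. Their median log2 fold change without the low-yield library was 0.30 for the 1KO.1TG group against the early 3KO.7TG group, 0.14 against the late 3KO.7TG group and 0.12 for the late against the early 3KO.7TG group. With 9 libraries it was 0.15, −0.07 and 0.10. Values of single genes from this and the following lists are those of the 8 libraries unless stated, and each kept its sign with 9. TNFSF10, the death ligand TRAIL, had scaled levels of 7.34 and 6.40 in the deep libraries of the 1KO.1TG group, 8.63, 8.13 and 8.84 in the early 3KO.7TG group, and 7.50, 8.19 and 8.08 in the late 3KO.7TG group. In the 8 libraries TNFSF10 was lowest in the 1KO.1TG group, where GZMA, PRF1 and GNLY were highest. It differed there by −1.60 ± 0.45 SE from the early 3KO.7TG group (limma adjusted p = 0.107) and by −1.03 ± 0.45 from the late 3KO.7TG group (limma adjusted p = 0.530). BCL2L1, the survival protein BCL-XL, had a fitted log2 fold change of 2.03 ± 0.58 in the 1KO.1TG group against the early 3KO.7TG group (limma adjusted p = 0.107), with scaled levels of 8.43 and 10.32 in the deep libraries and 7.05 to 7.82 in the other group. BIRC3, also the probe most like the members' mean, differed by 1.19 ± 0.48 from the late 3KO.7TG group (limma adjusted p = 0.527), and it gave 14 to 66 counts in the 8 libraries. FAS, the receptor of Fas ligand, had scaled levels of 7.47 and 8.40 in the deep 1KO.1TG libraries and 7.49 to 8.45 in the other 6. Its levels overlapped between all groups, as did those of its ligand.

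Transcription factors and cytokine receptors that drive the cytotoxic programme showed no called gene in any comparison, with 24 of 29 measured. Their median log2 fold change was 0.04, 0.13 and −0.12 in the 3 comparisons without the low-yield library and 0.00, 0.10 and −0.15 with it. STAT5B, a signal transducer of the IL-2 and IL-15 receptors, differed by −0.84 ± 0.38 SE (limma adjusted p = 0.256), and IL2RA, the high-affinity IL-2 receptor chain, by 2.66 ± 1.20 (limma adjusted p = 0.256), in the 1KO.1TG group against the early 3KO.7TG group. IL2RA gave 60 and 865 counts in the deep libraries of the 1KO.1TG group and 11 to 249 in the other 6, replicate 2 being far above the rest. IL18, a cytokine that activates NK cells, differed by −0.64 ± 0.39 in the 1KO.1TG group against the late 3KO.7TG group (limma adjusted p = 0.658). In the late against the early 3KO.7TG group, IL18 differed by 0.77 ± 0.35 and IL2RB, the receptor chain shared by IL-2 and IL-15, by −0.63 ± 0.32 (limma adjusted p = 0.911 for both).

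Interferon-gamma, secreted by the same lymphocytes, and genes it induces held 17 measured of 18 listed. Without the low-yield library SOCS1, a feedback inhibitor of cytokine signalling, was the 1 gene of this list that passed, being 3.29-fold lower in the 1KO.1TG group than in the early 3KO.7TG group (log2 fold change −1.72 ± 0.36 SE, limma adjusted p = 0.0468). With all 9 libraries it was −1.73 ± 0.43 and did not pass (limma adjusted p = 0.170). SOCS1 had scaled levels of 7.90 and 7.89 in the deep 1KO.1TG libraries and 9.28 to 9.92 in the early 3KO.7TG group. SOCS1 thus had low levels in the deep 1KO.1TG libraries, where 6 members had high ones. IFNG itself gave 11 to 42 counts in the 8 libraries. The list's median was 0.09, −0.04 and 0.10 in the 3 comparisons without the low-yield library and −0.44, −0.55 and 0.06 with it.

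Markers of the cells that carry such granules mostly overlapped between groups. Of the T cell list 15 of 19 genes were measured, and their summed CPM was 2117 and 3292 in the deep libraries of the 1KO.1TG group, 1735 to 2863 in the early 3KO.7TG group and 2342 to 3320 in the late 3KO.7TG group. The NK cell list, with 13 of 22 measured, summed to 2097 and 1654 in the deep 1KO.1TG libraries, 1414 to 2369 in the early 3KO.7TG group and 1464 to 1618 in the late 3KO.7TG group. Both sums overlapped between groups, except that NK cell genes summed to more in the deep 1KO.1TG libraries than in the late ones. No T cell or NK cell gene passed in any comparison. In the 8 libraries the T cell list had a median log2 fold change of 0.16 against the early 3KO.7TG group and −0.25 against the late 3KO.7TG group, and the NK cell list of −0.12 and −0.14. In the 9 libraries these were 0.04 and −0.23 for T cells and −0.15 and 0.11 for NK cells. TRAT1, a T cell signalling adaptor, had scaled levels of 5.31 and 5.34 in the deep 1KO.1TG libraries and 6.27 to 6.47 in the early 3KO.7TG group (limma adjusted p = 0.207 in the 8 libraries). THEMIS, which acts in T cell receptor signalling, differed by −1.36 ± 0.59 SE (limma adjusted p = 0.235) and KLRK1, the activating receptor NKG2D, by −0.91 ± 0.39 (limma adjusted p = 0.229) in the same comparison. THEMIS gave only 17 and 24 counts in the deep 1KO.1TG libraries, whose highest viral probes gave 13 and 10. With all 9 libraries TRAT1 and THEMIS overlapped between these groups. In the 8 libraries 9 of 15 T cell genes and 6 of 13 NK cell genes had values above 0 there, beside 49.9% of all probes. NCR1, the NK receptor NKp46, differed by 0.92 ± 0.54 in the 1KO.1TG group against the late 3KO.7TG group (limma adjusted p = 0.658). CD8B, the beta chain of the CD8 co-receptor, gave 3 counts in each library of the early 3KO.7TG group, under background, and 13, 23 and 20 in the late one, and differed by 1.91 ± 0.59 between the late 3KO.7TG group and the early 3KO.7TG group in the 8 libraries (limma adjusted p = 0.911). In the low-yield library 13 of 15 T cell genes and 11 of 13 NK cell genes lay at or below its highest viral probe.

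Markers of other cells also differed between these groups. Neutrophil genes, 7 of 10 measured, summed to 5369 and 50336 CPM in the deep libraries of the 1KO.1TG group, 462 to 625 in the early 3KO.7TG group and 1579 to 9861 in the late 3KO.7TG group. In the 8 libraries 3 of them (S100A8, S100A9 and MMP9) passed as higher in the 1KO.1TG group than in the early 3KO.7TG group, and the list's median log2 fold change was 2.55. With 9 libraries none passed, and all 7 had values above 0. Monocyte and macrophage genes, 12 of 16 measured, summed to 23427 and 35083 CPM in the deep 1KO.1TG libraries, 12600 to 18012 in the early 3KO.7TG group and 17926 to 36353 in the late 3KO.7TG group. None of them passed, and their median in the first comparison was 1.12 without the low-yield library and −0.07 with it, 6 of 12 being above 0. In the low-yield library the neutrophil genes summed to 1401 CPM and the macrophage genes to 3685, the latter below all other libraries. Both sums were thus higher in the deep 1KO.1TG libraries than in the early 3KO.7TG group, as levels of 7 members were. Against the late 3KO.7TG group both sums overlapped. Their part in the members' values was not tested. B and plasma cell (15 of 18 measured), mast cell (5 of 7), endothelial (7 of 8) and kidney parenchyma genes (7 of 15) had no called member in any comparison, with medians of 0.32, 0.08, −0.18 and −0.33 in that same one without the low-yield library and −0.03, 0.39, 0.16 and 0.05 with it.

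The balance of macaque over pig signal moved with some of the spread inside groups. In the early 3KO.7TG group the log2 ratio of macaque to pig signal was −3.62, −3.11 and −1.34, and GZMA had scaled levels of 9.91, 10.60 and 11.84 in the same libraries. In the late 3KO.7TG group the balance was −2.91, −1.45 and −1.61 and GZMA stood at 10.24, 10.48 and 11.00. GZMA was thus lowest in the library with the lowest macaque share in each of these groups. In the deep libraries of the 1KO.1TG group the balance was −2.16 and −0.56 and GZMA stood at 12.64 and 12.36. CTSW was instead lowest in the library with the highest macaque share in each group. It stood at 8.87 and 7.12 in those deep libraries, 8.45, 8.83 and 7.81 in the early 3KO.7TG group and 8.25, 6.61 and 7.53 in the late 3KO.7TG group. GNLY stayed between 10.58 and 10.65 across the 3 libraries of the early 3KO.7TG group. The part of this balance in the differences between groups was not tested.

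**Figure D4:**
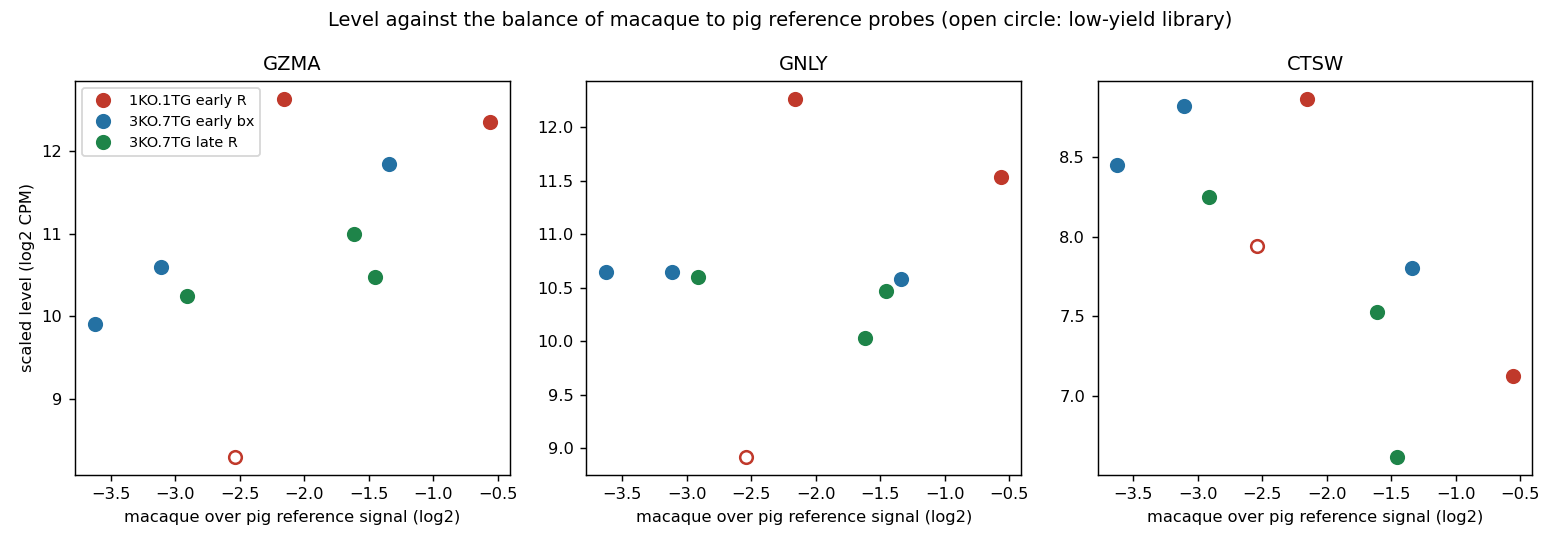
Scaled level (log2 CPM, vertical axis, each panel on its own scale) of GZMA, GNLY and CTSW against the log2 ratio of macaque to pig reference signal (horizontal axis) in the 9 libraries; the open circle is the low-yield library. In 3KO.7TG early bx GZMA goes from 9.91 to 11.84 as the ratio goes from −3.62 to −1.34, GNLY stays between 10.58 and 10.65, and CTSW is lowest at the highest ratio.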

How the data were processed

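The authors deposited log2 values for 767 probes in 9 samples. Per the labels' protocols, total RNA was extracted from formalin-fixed, paraffin-embedded tissue and held to an absorbance ratio. Steps after counting are not given in the sources used here. In the deposited log2 table, 2 to the power of each value was whole for 100% of probes (relative tolerance 1e-04), the smallest being 1, with no scaling visible. These whole numbers were used as counts. The sources do not state an added 1, and taking 1 off every count was tried. In R 4.3.3 with limma 3.58.1, voom (offset 0.5, library sizes times trimmed-mean factors with trims of 0.3 and 0.05), lmFit on 3 group means over all 9 libraries and eBayes gave two-sided tests, adjusted by Benjamini-Hochberg over 767 probes. SE is the moderated standard error. Fold changes are on the log2 scale with that offset. Total counts of 21725 to 1620151 a library limit the precision of low probes.

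The members and lists were chosen with earlier results of these data known. Named genes were all members, the 5 probes most like them, and from each list per comparison the 2 with the largest moderated t; not every one is printed, and 1 is not reported here. CD8A, FAS and IFNG, and the neutrophil genes that passed, were chosen after their values were seen. The fit was tested on simulated data. Deviations of same-numbered samples from their group means gave mixed correlations (9 pairs, r from −0.45 to 0.48, 3 over 0.1). Between early and late 3KO.7TG samples r was 0.28, −0.34 and 0.48 for replicates 1 to 3. These values cannot show whether the numbers mark pairs, and replicate numbers were not used to pair samples. No 2 replicates were identical, at least 97.7% of probes differing. Alternatives changed the scaling, offset, background, low-count filter, weights, groups fitted, replicate block and each left-out library. No sequences were used.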

Additional observations from a re-analysis of the deposited data

How the results depend on the processing

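Counting the comparisons in the order given, no member passed at an adjusted p under 0.05 with all 9 libraries under any of 324 combinations of member and alternative setting, the lowest adjusted p being 0.32, nor under any of 243 that left out 1 library, the lowest being 0.107. Of these, 59 and 25 turned the sign of a fitted log2 fold change. Without the low-yield library 16 of 135 did, all under no scaling or reference probe scaling. Such scalings move all probes: the median log2 fold change over 767 probes in the first comparison was −0.77 with no scaling, −0.38 with macaque and 0.82 with pig reference probes, against −0.07. Set against that median, no member changed side under any scaling tried without the low-yield library. With all 9 libraries up to 4 members did. Sizes moved too in the first comparison without the low-yield library. There macaque reference scaling gave GZMA 1.25, GNLY 0.76, PRF1 0.46, GZMH 0.35 and NKG7 0.16, beside a median over all probes of −0.52. Pig reference scaling gave the same genes 2.56, 2.12, 1.74, 1.52 and 1.51, beside a median of 0.79. With no scaling, the turned values were GZMH −0.33, GZMK −0.16, PRF1 −0.35 and FASLG −0.93 in the first comparison, GZMH −0.45, GZMK −1.08, PRF1 −0.44, GNLY −0.92 and CTSW −0.95 in the second comparison, and GZMA 0.33, GZMH 0.12, PRF1 0.094, GNLY 0.28 and NKG7 0.36 in the third comparison. With no scaling and without the low-yield library, the turned values were CTSW 0.12 in the first comparison, FASLG −0.085 in the second comparison, and GZMA 0.33, GZMH 0.12, PRF1 0.094, GNLY 0.28 and NKG7 0.36 in the third comparison. Scaled to the macaque reference probes, the turned values were GZMA 0.11, GNLY 0.11 and FASLG −0.38 in the first comparison, GZMA 0.57, GZMB 0.23 and NKG7 0.28 in the second comparison, and FASLG −0.20 in the third comparison. Scaled to the macaque reference probes and without the low-yield library, the turned values were GZMB −0.31 and FASLG −0.39 in the first comparison, GZMK −0.076 and FASLG −0.23 in the second comparison, and FASLG −0.16 in the third comparison. Scaled to the pig reference probes, the turned values were GZMA 0.84, GNLY 0.88, NKG7 0.41 and CTSW 0.37 in the first comparison, GZMA 0.64, NKG7 0.18 and FASLG 0.27 in the second comparison, and GZMA 0.20, GZMH 0.022, GNLY 0.16 and NKG7 0.23 in the third comparison. Scaled to the pig reference probes and without the low-yield library, the turned values were CTSW 0.51 in the first comparison and GZMA 0.24, GNLY 0.18 and NKG7 0.25 in the third comparison. Scaled to 3 housekeeping genes, the turned values were GZMA 1.31, GNLY 0.99 and NKG7 0.42 in the first comparison and GZMA 1.55, GZMB 0.57 and NKG7 0.64 in the second comparison. Scaled to the median, the turned values were FASLG −0.21 in the first comparison, GNLY −0.17 in the second comparison, and FASLG −0.020 in the third comparison. With viral background subtracted, the turned values were GZMA 0.69, GNLY 0.64, NKG7 0.18 and FASLG −0.063 in the first comparison and GZMA 0.95, GZMB 0.28 and NKG7 0.41 in the second comparison. With equal weights, the turned values were GZMA 0.31 and GNLY 0.28 in the first comparison and GZMA 0.52 in the second comparison. With an offset of 5 counts, the turned values were GZMB 0.090, NKG7 0.092 and FASLG 0.014 in the second comparison. With the replicate block, the turned values were GNLY 0.12 in the first comparison and GZMA 0.10 and FASLG 0.15 in the second comparison. With only the 2 groups compared, the turned values were GNLY −0.18 in the second comparison. With 1 taken off every count, the turned values were GZMA 0.017 in the second comparison. With each library left out in turn, fitted differences ran over −0.88 to 1.79 for GZMA, −1.15 to 0.26 for GZMB, −0.66 to 1.34 for GNLY, −0.83 to 0.73 for NKG7, −1.11 to 0.19 for CTSW and −0.18 to 0.42 for FASLG in the first comparison. They ran over −0.68 to 1.97 for GZMA, −0.53 to 0.87 for GZMB, −0.41 to 1.57 for GNLY, −0.66 to 0.88 for NKG7, −0.20 to 1.09 for CTSW and −0.33 to 0.28 for FASLG in the second, and over −0.61 to 0.33 for GZMA and −0.18 to 0.47 for FASLG in the third. The cause was not tested, beyond the low-yield library, whose removal gave the highest values of GZMA, GZMB, GNLY and NKG7 in both comparisons that use it.

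The count of probes passing in the first comparison was 3, and 8 with housekeeping or macaque reference scaling, and 3 to 14 with 1 library left out, 14 without replicate 1 or replicate 3 of the 1KO.1TG group. In the second it was 3, and 3 to 10 with 1 library left out, 10 without replicate 1 of the 1KO.1TG group. Without the low-yield library it was 14 in the first comparison, 8 with no scaling, 5 with macaque and 4 with pig reference scaling, 4 with background subtracted and 26 with the replicate block. That block made GZMA pass in the first comparison (2.16, limma adjusted p = 0.0424); it changed no other call of a member. Fits that combine another choice with leaving out the low-yield library were added after seeing the data. Groups of 3, or 2, and background near 10 counts limit what GZMH, FASLG and FGFBP2 can show.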
